A study of Mus musculus with 2 samples.

Results

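The 9 genes described here encode components, regulators and a receptor of the complement system, and they were chosen by symbol: C3, C4b, C1s1, C1ra, C1qa, C1qb, C1qc, Serping1 and C3ar1. Each symbol has 1 row among the 55450 gene rows of both libraries, so 9 of 55450 rows were used. The rule used symbols and no measured value, but the genes were chosen with earlier results of these data known. The data are 10x Chromium 3′ single-cell RNA-seq of aorta. The mice, 12 weeks old and Apoe-/-, had been given angiotensin II (Ang II), which constricts vessels, and had an aneurysm of the abdominal aorta. The DMSO group, 1 library, received the solvent, and the inhibitor group, 1 library, received a compound that the labels do not name. The group names are read from the initials in the sample titles and the series design. Both groups carry the Apoe deletion and received Ang II, so neither shows an aorta without Ang II. The sources used here do not state how many mice went into a library.

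Complement is a cascade of plasma proteins that tags microbes, dead cells and immune complexes. In the classical pathway C1q, built of the A, B and C chains, binds its target and activates the proteases C1r and C1s, which cleave C4 and C2, and the resulting convertase cleaves C3. Serping1, the C1 inhibitor, blocks C1r and C1s, and C3ar1 is the receptor on myeloid cells for the C3a fragment. The liver makes most circulating complement, while macrophages are a main source of C1q and mesenchymal cells make C1r, C1s and C3 in tissues.

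In GRCm38 each member is annotated as protein-coding in GENCODE M21. C1qa (chr4:136895917-136898803), C1qc (chr4:136889804-136893065) and C1qb (chr4:136880129-136886187) follow each other on the minus strand, 2851 and 3616 bases apart. C1ra (chr6:124512405-124523443, plus strand) and C1s1 (chr6:124530345-124542359, minus strand) are separated by 6901 bases. C3ar1 (chr6:122847138-122856161), C3 (chr17:57203970-57228136), C4b (chr17:34728380-34743882) and Serping1 (chr2:84765387-84775444) are all on the minus strand. C4b, C1ra and C1s1 have close copies, C4a, C1rb and C1s2, among which reads from shared sequence cannot be divided with certainty. Gm16567 overlaps C1s1 on the other strand. The copies held few reads here, at most 1.28 CPM (C1s2, DMSO library) over all kept cells.

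Upstream sequences are shown because the members fall into groups with different cell sources, macrophages for C1q and stromal cells for C3 and C1s. RefSeq entries (GRCm38.p6) matched 6 of the 9 members. The 250 bases before the annotated start are printed 5′ to 3′ on the gene's strand for the 3 genes whose window holds no GENCODE M21 exon. Capitals mark matches to the motifs searched on both strands, and positions are counted back from the annotated start. C3 is chr17:57228137-57228386, C1s1 is chr6:124542360-124542609 and C1qb is chr4:136886201-136886450, each on the minus strand.
C3: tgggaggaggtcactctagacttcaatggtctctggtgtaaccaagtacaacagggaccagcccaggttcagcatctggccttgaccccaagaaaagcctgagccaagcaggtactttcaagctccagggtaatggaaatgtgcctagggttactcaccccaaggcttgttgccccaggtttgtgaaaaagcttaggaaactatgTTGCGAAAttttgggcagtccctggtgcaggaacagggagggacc
C1s1: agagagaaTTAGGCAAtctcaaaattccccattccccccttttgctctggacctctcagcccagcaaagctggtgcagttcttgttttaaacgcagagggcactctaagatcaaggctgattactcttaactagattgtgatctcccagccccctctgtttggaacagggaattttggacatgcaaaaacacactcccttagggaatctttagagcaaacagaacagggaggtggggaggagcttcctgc
C1qb: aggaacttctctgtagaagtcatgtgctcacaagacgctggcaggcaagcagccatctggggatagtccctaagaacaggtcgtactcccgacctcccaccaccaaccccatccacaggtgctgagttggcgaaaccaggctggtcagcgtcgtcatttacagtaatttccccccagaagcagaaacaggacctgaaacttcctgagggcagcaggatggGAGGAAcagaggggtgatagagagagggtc
The motifs were that of NF-kB, GAGGAA for PU.1, TTCNNNGAA for the GAS element of STAT factors and TTGCNNAA for C/EBP. The C/EBP letters were found in C3 at -45 to -38 and, on the opposite strand, in C1s1 at -242 to -235. They occur in 9.56% of all 32851 upstream windows of this length. The PU.1 letters were found in C1qb at -30 to -25 and, on the opposite strand, in C1qc at -193 to -188, and they occur in 23.3% of all windows. The NF-kB motif, present in 4.65% of windows, was found on the opposite strand in C3ar1 at -14 to -5, and the GAS letters, present in 7.02%, matched none of the 7 member entries. These matches describe the letters only. C4b, C1qa and Serping1 are named only.

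There were 9125 barcodes with 101139161 UMIs (molecular tags that mark single captured transcripts) in the DMSO library and 8149 with 79648307 in the inhibitor library. After filtering, 8411 DMSO cells (median 7935 UMIs) and 7417 inhibitor cells (median 8991 UMIs) remained, and 16 barcodes occurred in both libraries. Clusters were named from cell type markers that contain no complement gene, and a name carries "-like" because it rests on those markers alone. Apoe RNA was counted in both libraries, at 319 CPM (UMIs scaled to the summed UMIs of the cells) in the DMSO and 109 CPM in the inhibitor library, which says nothing about the deletion because 3′ reads can come from outside the deleted part. With 1 library per group there is no replicate error and no test. Ratios carry exact 95% intervals that cover counting error only, and a gene is called lower or higher where its CPM ratio, inhibitor over DMSO, passes 1.5-fold and the interval leaves out 1. In a class, a gene counts as measured with at least 20 CPM in 1 library, 20 UMIs over both and 20% of its CPM in the class where it is highest.

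Over all kept cells, every one of the 9 complement genes was lower in the inhibitor library. C4b, the substrate of C1s, held 551 CPM in the DMSO and 122 CPM in the inhibitor library, a ratio of 0.222 (95% interval 0.217 to 0.227). C3, the central component, held 2713 and 795 CPM (ratio 0.293; 0.291 to 0.296). These were the lowest ratios of the set. C3ar1 followed at 54.7 and 22.8 CPM (0.417; 0.394 to 0.440) and C1s1 at 350 and 172 CPM (0.492; 0.482 to 0.502). The 3 C1q chains stood close together, with ratios of 0.524 for C1qa, 0.547 for C1qb and 0.598 for C1qc. Serping1 held 1355 and 772 CPM (0.570) and C1ra 210.5 and 121 CPM (0.576). Of all 7189 genes measured over all cells, 17.6% were lower and 9.54% higher, and the median log2 ratio was -0.92 for the members and -0.06 for all genes. With each cell weighted equally, or with cells thinned to 3000 UMIs, C1ra (0.756 and 0.713) and Serping1 (0.817 and 0.725) were no longer past 1.5-fold.

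The 2 libraries were made of different cells, and a level over all cells cannot tell fewer cells of a source from less RNA in each. Macrophage-like cells were 18.4% of the DMSO and 8.84% of the inhibitor library (1550 and 656 cells). Adipocyte-like cells were 8.99% and 1.11% (756 and 82 cells), and smooth muscle-like cells 7.94% and 27.4% (668 and 2029 cells). Fibroblast-like cells had nearly the same share of cells, 23.9% and 25.8% (2010 and 1916 cells). Their share of the UMIs, which sets their weight in the CPM over all cells, was 38.4% in the DMSO and 29.2% in the inhibitor library.

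Each member had a main source, and the sources divided the 9 genes into groups. Macrophage-like cells held 85.9% of the DMSO library's C1qa UMIs, 85.6% of C1qb, 86.8% of C1qc and 84.9% of C3ar1, and 87.7%, 86.8%, 89.2% and 87.2% in the inhibitor library. Fibroblast-like cells held 83.1% of C1s1, 81.9% of C1ra and 85.1% of Serping1 UMIs in the DMSO library, and 80.1%, 80.7% and 89.2% in the inhibitor library. For C3 the fibroblast-like share was 74.7% in the DMSO library, with 18.1% in adipocyte-like cells, and 91.4% with 4.98% in the inhibitor library. C4b was the gene with the most divided source. In the DMSO library 49.0% of its UMIs lay in fibroblast-like, 41.1% in adipocyte-like and 3.17% in macrophage-like cells, and in the inhibitor library 61.3%, 18.3% and 11.7%. The adipocyte-like cells were 2.08% of the inhibitor library's UMIs, against 14.95% in the DMSO library. The macrophage-like shares of C1q depend on which clusters are named: in the DMSO library that of C1qa was 33.1% where the 6% of cells with the highest doublet scores were removed and more clusters stayed unnamed.

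**Figure D1:**
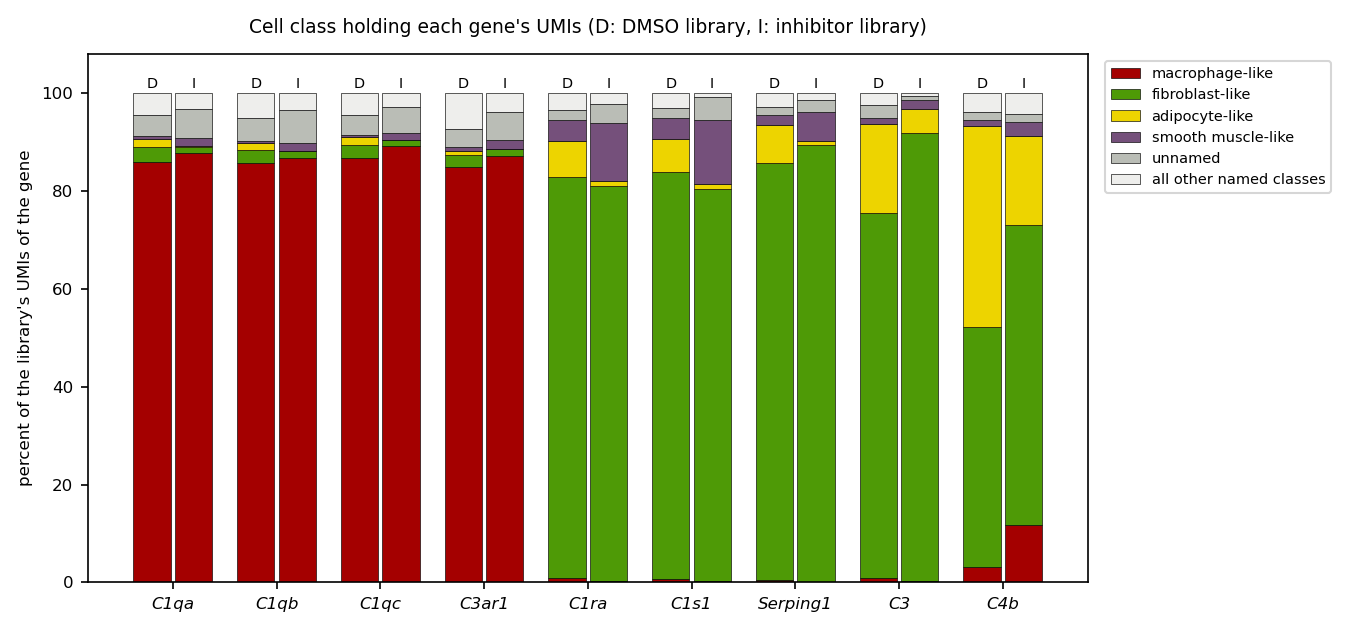
Stacked bars give the percent of each gene's UMIs (vertical axis, percent) held by each cell class, with the DMSO library (D) and the inhibitor library (I) side by side for each of the 9 genes. C1qa, C1qb, C1qc and C3ar1 lie mostly in macrophage-like cells, C1ra, C1s1, Serping1 and C3 in fibroblast-like cells, and the adipocyte-like share of C4b is 41.1% in the DMSO and 18.3% in the inhibitor library.

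To set apart cell makeup from level, the inhibitor library's cluster CPM were weighted by the DMSO library's UMI shares of 26 clusters with at least 20 cells in each library. This is arithmetic on the same counts and no test. The ratios of the macrophage genes then lay near 1: C1qa went from 0.515 to 0.986, C1qb from 0.537 to 1.08, C1qc from 0.586 to 1.16 and C3ar1 from 0.408 to 0.899. Those of C1ra (0.574 to 0.858), Serping1 (0.569 to 0.795) and C1s1 (0.494 to 0.772) moved part of the way. C3 (0.292 to 0.681) and C4b (0.220 to 0.632) kept the lowest ratios of the 9 after weighting.

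**Figure D2:**
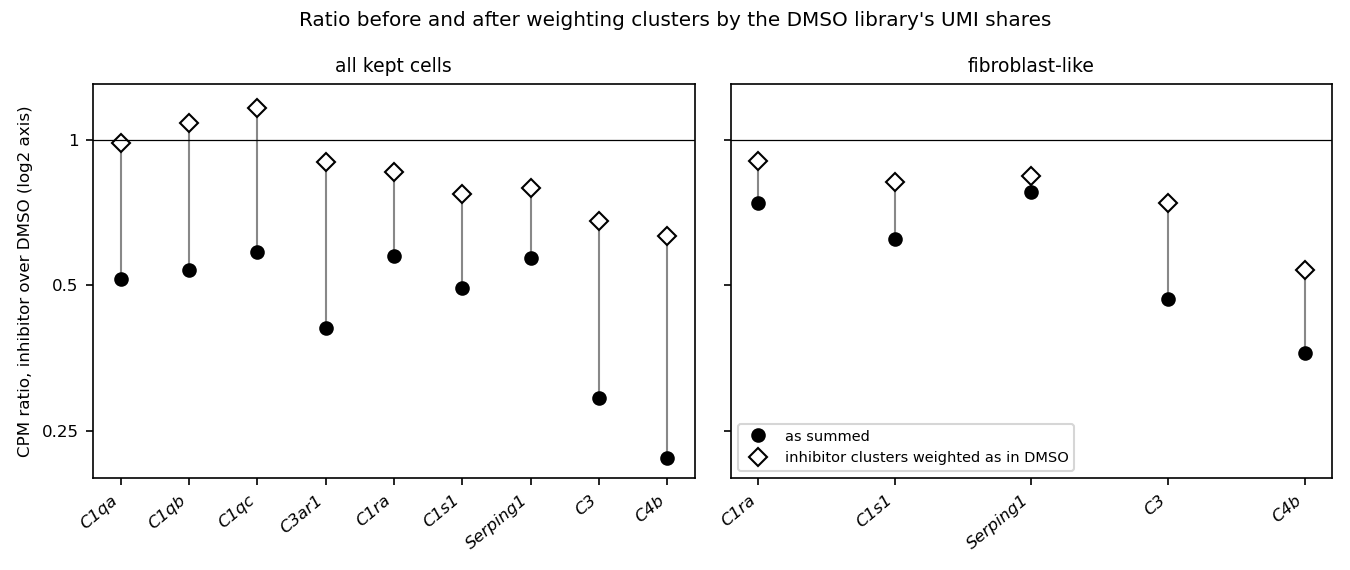
The vertical axis (log2 scale) gives the CPM ratio of the inhibitor over the DMSO library for each gene, as summed (filled circles) and after the inhibitor clusters are weighted as in the DMSO library (open diamonds), over all kept cells on the left and fibroblast-like cells on the right. Weighting brings C1qa to 0.986 over all kept cells, while C4b stays at 0.632 there and at 0.538 in fibroblast-like cells.

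The C1q chains and C3ar1 in macrophage-like cells come first, as the recognition molecule of the classical pathway and a receptor of its product. C1qa held 3678 CPM in the DMSO and 4130.1 CPM in the inhibitor library (ratio 1.12; 1.10 to 1.14). C1qb held 3951 and 4597 CPM (1.16; 1.14 to 1.18) and C1qc 2031 and 2619 CPM (1.29; 1.26 to 1.32). C3ar1 held 395 and 354 CPM (0.897; 0.845 to 0.952). The 3 chains were thus at or above the DMSO level per UMI of macrophage RNA, and none of the 4 measured members passed the call, where 3% of 6038 measured genes were lower and 2.9% higher. The UMIs of the chains stood in nearly fixed proportion, 38.1% C1qa, 40.9% C1qb and 21.03% C1qc in the DMSO library and 36.4%, 40.5% and 23.1% in the inhibitor library. Since 3′ UMIs mark molecules and not length, these are shares of captured transcripts.

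Macrophage-like cells held 4 clusters, and C1q differed among them more than between libraries. Cluster 4 carried resident macrophage markers (Cd163, Folr2, Cbr2, F13a1, Gas6; 753 DMSO and 409 inhibitor cells). Lyve1, also on the resident macrophage list, did not pass as a marker there. Cluster 4 had the highest C1qa, 4937 and 5086 CPM (ratio 1.03). Cluster 7 carried lipid-handling markers (Gpnmb, Spp1, Trem2, Lpl, Fabp5, Cd9; 491 and 107 cells) and held 2878 and 2539 CPM of C1qa (0.882; 0.848 to 0.917). In that cluster C1qb and C1qc held 3503 and 1751 CPM in the DMSO and 3750.3 and 2004 CPM in the inhibitor library. C3ar1 was not highest in the resident cluster, with 424 and 348 CPM in cluster 4 and 432 and 442 CPM in cluster 7. Cluster 24, led by the division genes Mki67 and Top2a (71 and 37 cells), held 2622 and 3830 CPM of C1qa. Cluster 17, with medians of 975 and 1172 UMIs per cell, held 1640.1 and 2698 CPM (1.64; 1.44 to 1.88), where 8.84% of measured genes were higher. Beside that last ratio, the summed CPM of the 9 macrophage markers in cluster 17 was 6079 in the DMSO and 10061 in the inhibitor library, and that of the 9 fibroblast markers 3895 and 1493. Their part in the result was not tested. In the cluster led by Cd209a and class II genes, which stayed unnamed, C1qa was below all 4 of these clusters, at 431 and 566 CPM.

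**Figure D3:**
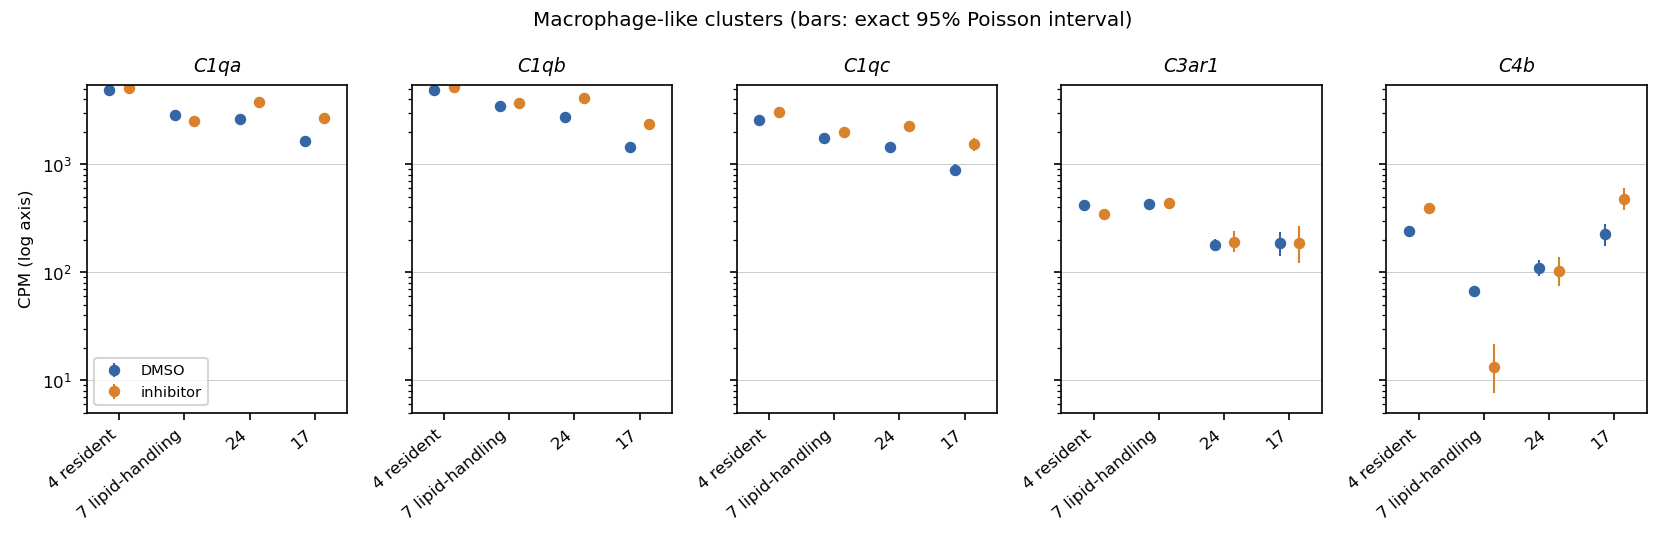
Points give the CPM (log axis) of C1qa, C1qb, C1qc, C3ar1 and C4b in the 4 macrophage-like clusters for the DMSO and the inhibitor library, with exact Poisson intervals. The C1q chains are highest in resident cluster 4 in both libraries, and C4b has 239 and 393 CPM there against 66.6 and 13.2 CPM in lipid-handling cluster 7. The C4b level of T cell-like cells, not shown, was 38.6 and 10.4 CPM.

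Most macrophage-like cells held UMIs of the chains together. With every cell thinned to 3000 UMIs and shallower cells left out (402 DMSO and 192 inhibitor cells), 83.7% of 1148 DMSO cells (95% Clopper-Pearson interval 81.4 to 85.8%) and 85.3% of 464 inhibitor cells (81.8 to 88.4%) held UMIs of all 3 chains. Only 7.0% and 6.9% held none. Free RNA can give UMIs to cells that do not make C1q: at the same depth, 2.07% of 193 DMSO and 0 of 55 inhibitor T cell-like cells (95% interval up to 6.49%) held all 3 chains. The T cell-like C1qa level was 109 CPM in the DMSO and 24.2 CPM in the inhibitor library, from 121 and 7 UMIs. C1qa was likewise lower in fibroblast-like cells, at 39.9 and 12.5 CPM, but not in Schwann-like cells, at 98.8 and 102 CPM. The part of free RNA in these levels was not tested. C3ar1 was found in 65.4% of the thinned DMSO and 59.7% of the inhibitor macrophage-like cells, and in 3.11% and 0 of the T cell-like cells.

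C4b in macrophage-like cells went the other way from its main sources. It held 148 CPM in the DMSO and 256 CPM in the inhibitor library (ratio 1.72; 1.59 to 1.86), and it lay under 20% of its highest class level, so it was not among the measured members. Weighting the inhibitor clusters as in the DMSO library gave a ratio of 1.32, under the 1.5-fold call. Resident cluster 4 was 48.6% of the class in the DMSO and 62.3% in the inhibitor library. C4b was higher in cluster 4, with 239 and 393 CPM (1.64; 1.51 to 1.79), where 5.24% of measured genes were lower and 4.68% higher. It was also higher in cluster 17, with 225 and 482 CPM (2.14; 1.53 to 3.01) from 76 and 70 UMIs, beside the marker sums given above for that cluster. Lipid-handling cluster 7 held 66.6 and 13.2 CPM (0.198; 0.112 to 0.327). The T cell-like level was 38.6 and 10.4 CPM (0.269; 0.053 to 0.840), so the resident cells stood above it in both libraries. Cluster 7 lay near that level, most closely in the inhibitor library, so its ratio cannot be told apart from that of the background. After thinning, 30.6% of the DMSO and 38.4% of the inhibitor cells of cluster 4 held C4b. C3, at 195 and 52.9 CPM in macrophage-like cells, lay close to its level in T cell-like cells, 171 and 38.1 CPM. C1s1, C1ra and Serping1 were at most 56.5 CPM in macrophage-like cells and are not described further for them.

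The proteases, their inhibitor and C3 were mainly genes of fibroblast-like cells, which shared C4b with adipocyte-like cells. Of the 5 members measured in fibroblast-like cells, C3, C4b and C1s1 were lower in the inhibitor library, where 6.26% of 5833 measured genes were lower and 4.63% higher. C3 held 5280.2 CPM in the DMSO and 2490.0 CPM in the inhibitor library (ratio 0.472; 0.467 to 0.476), and C4b 703 and 257 CPM (0.366; 0.355 to 0.376). C1s1 held 758 and 472 CPM (0.623; 0.609 to 0.637). C1ra, at 449 and 335 CPM (0.746; 0.725 to 0.767), and Serping1, at 3004 and 2359 CPM (0.785; 0.777 to 0.793), were also under 1 but not past the call. The 4 macrophage genes were not measured in fibroblast-like cells, where C1qa held 39.9 and 12.5 CPM, under the 109 and 24.2 CPM of T cell-like cells.

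Different clusters held most of the fibroblast-like class in the 2 libraries. Cluster 1, with the inflammatory markers Saa3, Il33, Lcn2, Ptx3 and Il6, was 57.5% of the class in the DMSO (1156 cells) and 23.2% in the inhibitor library (445 cells). Cxcl13, Ccl19 and Cxcl1, also on the inflammatory list, did not pass as markers there. Pi16 and Cilp, which are on the lists of different fibroblast states, were among its leading genes. Cluster 2, with Rbp4, Fmod, Angptl7 and Ccn2, was 16.9% and 62.1% (339 and 1190 cells). Cilp, on the same list as these markers, did not pass there. Cluster 8, led by Penk and Inmt, carried no full set of state markers (360 and 221 cells), though Cxcl13 of the inflammatory list was among its leading genes. Cluster 23 held the myofibroblast markers Postn, Cthrc1 and Acta2 and was led by division genes (79 and 53 cells). Col8a1 and Comp, also on the myofibroblast list, did not pass as markers there.

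These fibroblast states differed widely in complement RNA. C3 was highest in cluster 8, at 10366 and 5618 CPM, intermediate in inflammatory cluster 1, at 5175 and 4341 CPM, and low in cluster 2, at 1311 and 721 CPM. The highest of the 4 clusters stood 7.90-fold over the lowest in the DMSO and 7.99-fold in the inhibitor library. Among clusters 8, 1 and 2, C4b had the same order, with 1267 and 638 CPM in cluster 8, 715 and 395 CPM in cluster 1 and 206 and 102 CPM in cluster 2. C1s1 and C1ra spread less, from 1190 and 769 CPM in cluster 8 to 274 and 160 CPM in cluster 23 of the DMSO library. Serping1 was at least 2554 CPM in clusters 1, 2 and 8 of the DMSO library and 1181 CPM in cluster 23. In cluster 23 all 7 measured members, C1qa and C1qb at background levels among them, were lower in the inhibitor library, Serping1 at 616 and C3 at 703 CPM, where 12.3% of measured genes were lower.

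**Figure D4:**
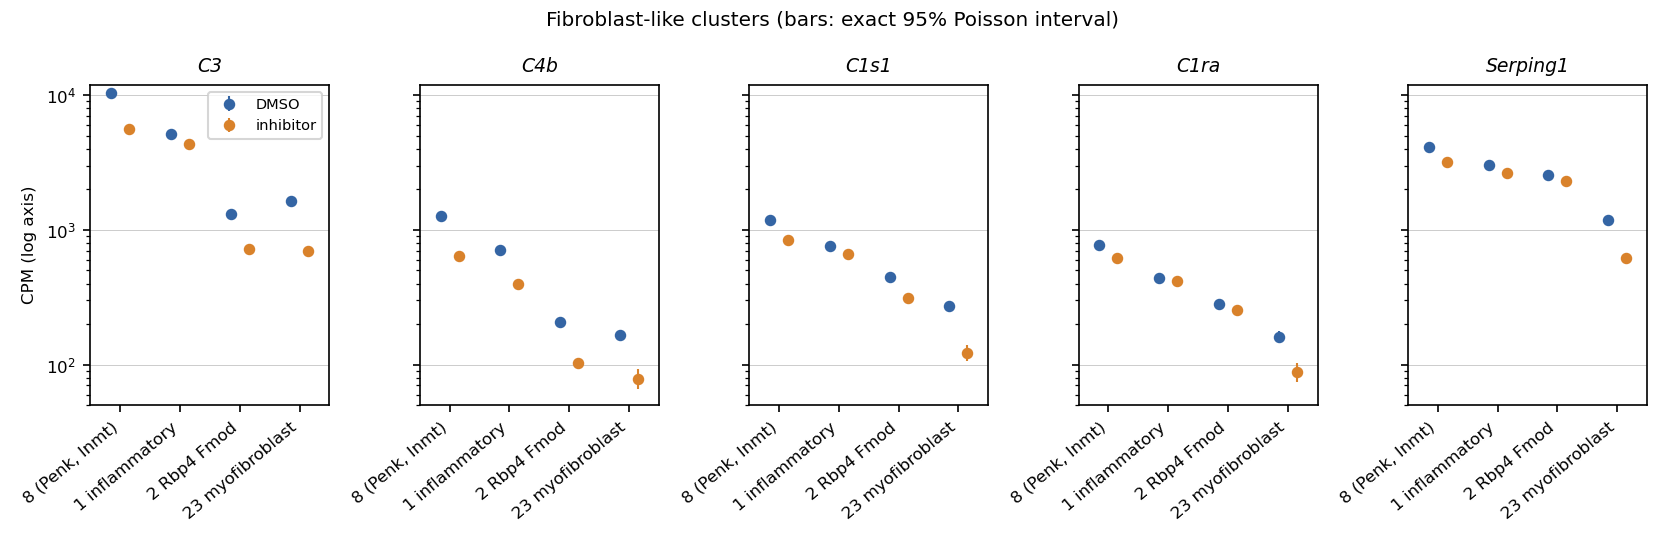
Points give the CPM (log axis) of C3, C4b, C1s1, C1ra and Serping1 in 4 fibroblast-like clusters for the DMSO and the inhibitor library, with exact Poisson intervals that are mostly smaller than the points. Every gene is highest in cluster 8, and each inhibitor value lies below the DMSO value of its cluster, with the narrowest gap for C1ra in cluster 1 (437 and 416 CPM).

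Within a cluster the genes parted. C4b differed by a like amount in each of the 3 larger clusters, with ratios of 0.553 (0.532 to 0.574) in cluster 1, 0.497 (0.451 to 0.549) in cluster 2 and 0.504 (0.474 to 0.534) in cluster 8, where 5.96%, 5.89% and 8.07% of measured genes were lower. C3 had ratios of 0.550 in cluster 2 and 0.542 in cluster 8 but 0.839 (0.829 to 0.849) in cluster 1, which held 50.3% of the DMSO and 57.4% of the inhibitor library's C3 UMIs. C1s1 lay at 0.877, 0.691 and 0.703 in clusters 1, 2 and 8. C1ra lay at 0.952, 0.911 and 0.807, and Serping1 at 0.864, 0.898 and 0.773. In this cell class, weighting the inhibitor clusters as in the DMSO library gave 0.538 for C4b, 0.741 for C3, 0.817 for C1s1, 0.840 for Serping1 and 0.905 for C1ra. The UMI ratio of C4b to C3 was 0.138 and 0.0911 in cluster 1, 0.122 and 0.114 in cluster 8.

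The shares of cells followed the levels. At 3000 UMIs per cell, C3 was found in 92.2% of 1896 DMSO and 62.2% of 1743 inhibitor fibroblast-like cells, and C4b in 64.5% and 29.4%. Without thinning the shares were 95.9% and 72.7% for C3 and 82.5% and 45.9% for C4b. In T cell-like cells at the same depth, C3 was found in 38.3% and 9.09% and C4b in 7.77% and 5.45%. The median thinned cell held 12 C3 UMIs in the DMSO and 2 in the inhibitor library. Serping1 was nearly universal, in 98.8% and 98.0% of the cells, with medians of 8 and 7 UMIs. The 10% of fibroblast-like cells richest in C3 held 30.7% of its thinned UMIs in the DMSO and 48.7% in the inhibitor library. The C3 UMIs of the class were thus gathered in a smaller part of its cells there. These class values pool clusters whose parts in the class differed between the libraries, as given above. In cluster 1 alone, C3 was found in 97.4% of 1088 thinned DMSO and 90.4% of 427 thinned inhibitor cells, with medians of 13 and 8 UMIs.

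The class with the highest C4b was that of adipocyte-like cells, which store fat around the vessel. It held 1514 CPM in the DMSO and 1073 CPM in the inhibitor library (ratio 0.709; 0.674 to 0.745). The other 4 measured members were lower in the inhibitor library, where 5.83% of 5330 measured genes were lower and 4.82% higher. C3 held 3290.0 and 1901 CPM (0.578; 0.557 to 0.600) and Serping1 712 and 309 CPM (0.434; 0.395 to 0.476). C1s1 (157 and 81.2 CPM) and C1ra (104 and 59.1 CPM) had ratios of 0.518 and 0.569. The inhibitor values rest on 82 cells.

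The class had 2 clusters of unlike purity. Cluster 13 also carried fibroblast markers, whose summed CPM was 15836 in the DMSO and 7917 in the inhibitor library, and its C3 was 4165 and 2311 CPM. Their part in that difference was not tested. In cluster 16, with Cidec, Retn and Cox8b, the fibroblast marker sum was 1200.0 and 1212 CPM, and C3 was 2891 and 1741 CPM (0.602; 0.575 to 0.631). Serping1 held 519 and 181 CPM there (0.348; 0.301 to 0.401) and C4b 1422 and 1026 CPM (0.721; 0.678 to 0.766). These values rest on 314 DMSO and 39 inhibitor cells. In the same cluster the macrophage markers summed to 464 and 139 CPM and the smooth muscle markers to 386 and 1405 CPM, and their part in these differences was not tested. Cfd, the protease that starts the alternative pathway and a product of fat cells, held 32181 and 34619.5 CPM in the class (1.08; 1.07 to 1.09). At 3000 UMIs, 91.3% of 596 DMSO and 83.3% of 72 inhibitor adipocyte-like cells held C3, C4b and Cfd together.

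Some members were also counted in the other classes. Schwann-like cells, the glia of nerves, held C4b at 409 and 281 CPM (ratio 0.687; 0.602 to 0.783) against 38.6 and 10.4 CPM in T cell-like cells. It lay in cluster 10 (437 and 352 CPM), led by Fabp7 and Cdh19, and was 161 and 17.9 CPM in cluster 22, with Prx among its leading genes, where 4.74% of measured genes were lower. In endothelial cluster 14, led by Cytl1 and Gja5 (197 and 243 cells), C3 was 894 and 35.3 CPM, C1s1 98.9 and 6.62 CPM and Serping1 419 and 106 CPM, while C1ra was 94.2 and 71.7 CPM (9.72% of measured genes were lower in that cluster). The 9 fibroblast markers summed to 6282 and 1724 CPM in the same cells, with none at 0. Only 11 DMSO cells of that cluster held at most 1 fibroblast marker UMI, and they held 1 C3 UMI, so the part of fibroblast RNA was not tested. Smooth muscle-like cells held Serping1 at 237 and 127 CPM and C1s1 at 131 and 62.9 CPM, both under 20% of the fibroblast-like level. Lymphatic endothelial-like cells held Serping1 at 432 and 311 CPM (0.719; 0.623 to 0.829), and in their cluster 21, where 10.4% of measured genes were lower, C1qb was 191 and 82.9 CPM. The macrophage markers summed to 1056 and 212 CPM in cluster 21, with 1 of 9 at 0 in the inhibitor library, and their part was not tested. The 54 neutrophil-like cells of the inhibitor library held C1s1 at 166 CPM against 31.9 CPM in 242 DMSO cells (20 and 16 UMIs). The ratio was 5.20 (2.56 to 10.7), where 6.87% of measured genes were higher in the class and 7.77% by the cluster's own filter. Without thinning, only 3.70% of these inhibitor and 6.61% of these DMSO cells held a C1s1 UMI. The interval takes UMIs as independent and does not cover their gathering in few cells. The fibroblast marker sum of the class was 3714 CPM in the inhibitor against 2051 CPM in the DMSO library. Its part was not tested.

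**Figure D5:**
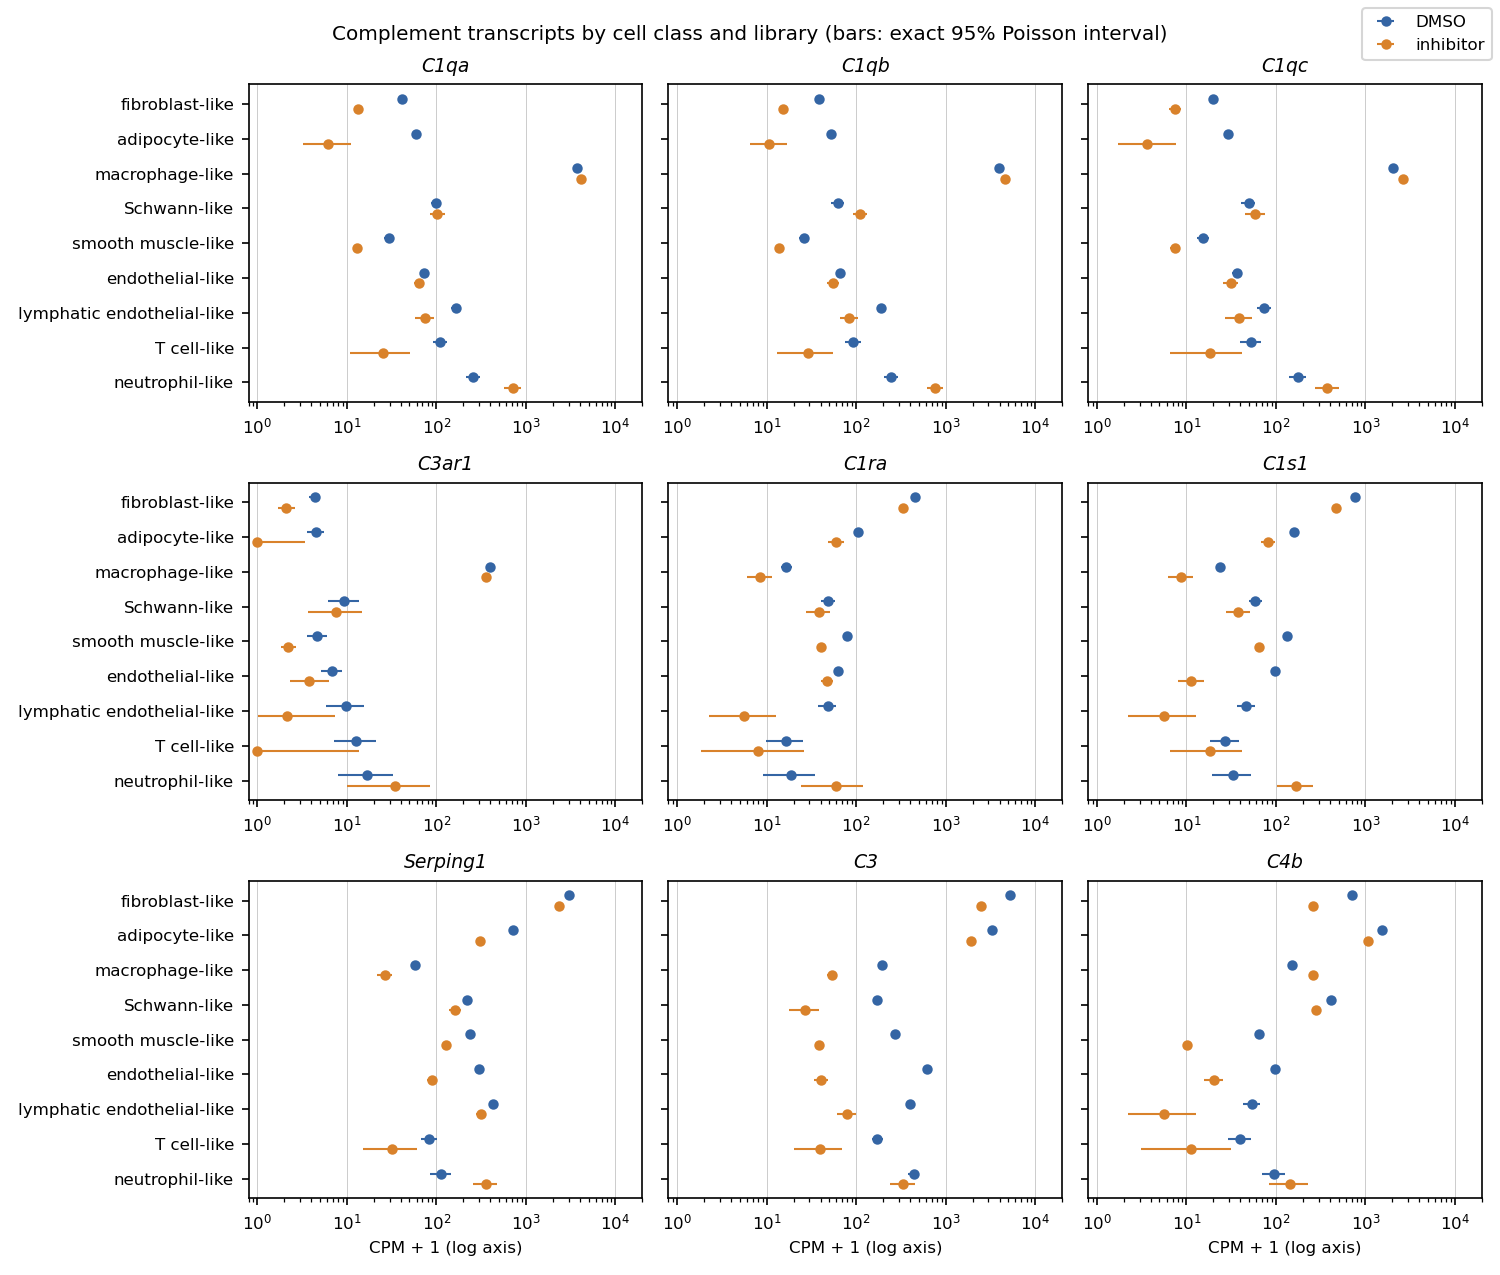
Each panel gives the CPM + 1 (log axis) of 1 gene in 9 cell classes for the DMSO and the inhibitor library, with exact Poisson intervals. C1q and C3ar1 stand out in macrophage-like cells, Serping1, C1ra and C1s1 in fibroblast-like cells, C3 in fibroblast-like and adipocyte-like cells, and C4b is highest in adipocyte-like cells (1514 and 1073 CPM).

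The other complement genes were taken from lists of 47 genes of the classical, lectin, alternative and terminal pathways, regulators and receptors, all of which have rows. In fibroblast-like cells 8 were measured, 1 higher, 2 lower and 5 between, where 4.63% of all measured genes were higher and 6.26% lower. C7, a component of the membrane attack complex, was higher at 174 and 353 CPM (ratio 2.04; 1.97 to 2.11). Cd55, which breaks down C3 convertases on the cell surface, was lower at 134 and 67.4 CPM (0.504; 0.475 to 0.535), as was Vtn, which blocks the attack complex, at 37.6 and 13.2 CPM (0.352; 0.309 to 0.401). C2, which joins C4 in the classical convertase, held 213 and 222 CPM (1.04) and Cfb, its alternative pathway counterpart, 86.3 and 64.5 CPM (0.747). C7 and Vtn were among the leading genes of cluster 8, which was 17.9% of the class in the DMSO and 11.5% in the inhibitor library. These values pool clusters whose parts in the class differed between the libraries. The part of that shift in the ratios was not tested.

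In macrophage-like cells, where 3% of all measured genes were lower and 2.9% higher, 9 of the 47 were measured. Fcna, a ficolin of the lectin pathway, was higher at 23.2 and 48.0 CPM (ratio 2.07; 1.71 to 2.50), and 8 were between. Among these were properdin, Cfp, which stabilises the alternative convertase, at 528 and 358 CPM (0.678; 0.640 to 0.718), the C5a receptor gene C5ar1 at 212 and 249 CPM (1.18) and Itgam, a chain of the receptor for cleaved C3, at 323 and 327 CPM. In adipocyte-like cells, where 5.83% of all measured genes were lower and 4.82% higher, 10 were measured, with 4 lower, C6, Clu and Vtn among them, and 6 between. Clu, which blocks the terminal complex, held 4373 and 2771 CPM (0.634; 0.614 to 0.654). C6, a component of the attack complex, held 41.6 and 19.5 CPM (0.468; 0.313 to 0.676). In endothelial-like cells, where 4.62% of measured genes were higher, Clu was higher, at 1524 and 2363 CPM (1.55; 1.51 to 1.60), opposite to its ratio in adipocyte-like cells. The difference between these ratios was not tested. Endothelial cluster 14 was 21.2% of the endothelial-like cells in the DMSO and 44.6% in the inhibitor library, and the part of this shift in the Clu ratio was not tested. Over all kept cells 10 of 16 measured genes of the lists were lower and 0 higher, where 17.6% of all measured genes were lower and 9.54% higher. Among the lower genes was Cfd at 4975 and 749 CPM, whose level within adipocyte-like cells was given above.

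The likeness of patterns was measured as Pearson's r of log2(CPM + 5) over 49 sums of a cluster in a library, with 8543 genes compared. These sums share libraries and depths, and r is given as a description. The C1q chains were most like each other, with r of 0.990 to 0.992, followed by the macrophage genes Aif1, Mrc1 and Adgre1 and by C3ar1. C3ar1 was most like Trem2 (0.971) and Tlr7 (0.968). C1ra, C1s1 and Serping1 each had the other two among their 5 most like genes (0.921 to 0.942). Ildr2 (0.935) and Pcolce (0.932) ranked above Serping1 for C1s1, and Igfbp4 (0.934) ranked above C1s1 for Serping1. Medag, Mmp2 and C2 were also among these lists. C3 was most like Steap4 (0.918), Gpx3 (0.913), Dpt, Gfpt2 and Ptges. C4b had no close match, with Chl1 at 0.792, Gpx3 at 0.772, Saa3 at 0.771, C3 at 0.770 and Cxcl1 at 0.758.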

How the data were processed

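The authors deposited whole UMI counts for each gene in each barcode. Per the file headers these come from Cell Ranger 6.1.1, and per the submitters' processing notes the build was GRCm38. Those notes also name Seurat, without a step. All 55450 gene rows match GENCODE M21. Barcodes with under 200 genes or over 20% mitochondrial UMIs were left out. Scrublet's automatic threshold called 0 DMSO cells, so that of the inhibitor library (0.214) served for both and took out 253 DMSO and 440 inhibitor cells. Clustering used the 2 libraries jointly, with no integration, 2000 variable genes without any listed gene or marker, 30 components, 15 neighbours and Leiden at resolution 1, and gave 35 clusters. A cluster was named where 3 markers of a list were each in 20% of its cells and stood 1 on the log2 scale over percentile 25 of the remaining clusters, with a mean score of 1.5, a median of 1000 UMIs and leading genes that fit. This named 28 clusters in 12 classes, and 9 classes had the 50 cells per library needed to compare them. States were named against clusters of the same class, a choice made after the clusters were seen. UMIs were summed by class and library and set to CPM, with a pseudocount of 5 CPM for log2 values. The genes named are the 9 members, the genes of the complement lists past the call in the 3 main classes with some of those not past it, chosen after their values were seen, and the 5 genes most like each member. A few genes that the rule names or that lead a cluster are not reported here. Members and lists were chosen with earlier results of these data known. The scripts were tested on simulated data. Scanpy 1.11.5 with leidenalg 0.10.2 and scikit-learn 1.9.0 did the clustering, scipy 1.17.1 the intervals, and matplotlib 3.10.9 the plots, under Python 3.11.15. Of 15 alternative settings tried, 1 was chosen after seeing the data.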

Additional observations from a re-analysis of the deposited data

Results flagged for a closer look

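For 4 members a pair of cell clusters differed in opposite directions between the libraries, each past 1.5-fold and at least 2 times the T cell-like level in the library where it was higher. With 1 library per group the difference between the clusters was not tested. C4b had a log2 ratio, inhibitor over DMSO, of 1.08 in macrophage-like cluster 17 (76 and 70 UMIs in the DMSO and inhibitor library) and -2.86 in Schwann-like cluster 22 (41 and 4 UMIs). C1s1 had 2.21 in neutrophil-like cluster 20 and -3.16 in endothelial cluster 14. C1qb had 1.62 in cluster 20 and -1.16 in lymphatic endothelial-like cluster 21, where the macrophage markers summed to 1056 CPM in the DMSO and 212 CPM in the inhibitor library. Serping1 had 1.63 in cluster 20 and -1.94 in cluster 14. The fibroblast markers summed to 2051 CPM in the DMSO and 3714 CPM in the inhibitor library in cluster 20. In cluster 14 they summed to 6282 and 1724 CPM, and their part in the C1s1 and Serping1 ratios was not tested. Cluster 20 held 54 inhibitor cells, and its neutrophil markers summed to 27778 CPM in the DMSO and 14649 CPM in the inhibitor library. Without thinning, C1s1 was found in 6.61% of its DMSO and 3.70% of its inhibitor cells. Serping1 was found in 16.5% and 5.56% and C1qb in 25.2% and 14.8%, so the inhibitor values there rest on few cells.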

How the results depend on the processing

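The counts of members called lower or higher over all kept cells and in fibroblast-like, macrophage-like and adipocyte-like cells were recomputed under 15 alternatives. Of these counts 112 stayed within 1.5 times the value reported, 8 moved and 0 reversed. With a call at 2-fold, 4 members were lower over all cells in place of 9 (C3, C4b, C1s1 and C3ar1) and 1 in adipocyte-like cells in place of 4 (Serping1). Without the filter on low values, 7 members were lower in fibroblast-like cells in place of 3, 4 in macrophage-like cells in place of 0 and 8 in adipocyte-like cells in place of 4, because genes at the background level then count. In macrophage-like cells 1 member, C4b, was higher in place of 0 without that filter, with the top 6% of doublet scores removed and with cells thinned to 3000 UMIs. The share of all genes called under each alternative is not given, so these counts are not set against it. Among single ratios and shares 353 stayed, 154 moved and 0 reversed. TMM scaling shifted log2 ratios by 0.14 over all cells, 0.16 in smooth muscle-like and -0.24 in neutrophil-like cells. The C1s1 ratio in neutrophil-like cells ranged from 1.47 to 17.9, and the cause was not tested. No paired analysis was possible because each group holds 1 library. Of the classes compared, neutrophil-like cells had the fewest UMIs in the inhibitor library (120621), and T cell-like cells came next (288940).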
